A study of Mus musculus with 16 samples.

Results

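The genes described here are 42 motile cilia genes, measured on Illumina MouseWG-6 v2 arrays in organotypic slices of the mouse suprachiasmatic nucleus (SCN), the hypothalamic clock. The set was chosen by name after the falls in slices given vasoactive intestinal peptide (VIP), against slices given vehicle, were known. The values that chose the members are therefore those of the CT12 VIP and CT12 Veh arrays, and what is given below on their difference describes how the set was chosen and is no independent test of it. Of the 42 genes, 31 had a probe in the globally normalised table, which holds 19893 probes and named probes of 10620 genes. The other 11 (Dnaic2, Spag6, Spag16, Spag17, Hydin, Ccdc40, Lrrc6, Zmynd10, Tekt4, Ttll6 and Meig1) were not analysed here.

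Motile cilia are beating hairs built on an axoneme, a ring of microtubule doublets around a central pair. Dynein arms slide the doublets past each other, radial spokes and the central pair time that sliding, and nexin links hold the ring together. In the brain such cilia stand on ependymal cells, which line the ventricles and move cerebrospinal fluid, and the third ventricle lies beside the SCN. Foxj1 and the RFX factors are the transcription factors known for switching on this set of genes.

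There were 4 groups of 4 slices. CT16 VIP and CT12 VIP slices received VIP at circadian time (CT) 10 and were harvested 6 h and 2 h later. Vehicle was given at CT10 to the CT12 Veh slices, 2 h before harvest, and CT10 slices were harvested untreated. All slices came from C57BL/6J pups of postnatal day 8 to 11 and carried PER2::LUC, a luciferase reporter fused to the clock protein PER2, whose peak defines CT12. The VIP dose is 1 µM in the labels and 10 µM in the methods of the study. The series description dates the harvest at 6 h to CT12, whereas the sample labels and the methods give CT16. The sources used here do not state whether each slice of a group was from a pup of its own, so the p-values measure the spread between these slices. No vehicle slices of CT16 were analysed here, and the time of day cannot be told apart from the time after VIP in comparisons of CT16 VIP slices.

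Promoters of members are shown because RFX factors bind the X-box, an imperfect palindrome, and GTTGCC is the sequence of its arm. RefSeq windows (GRCm38.p6, 250 bases before to 50 bases after the annotated start) matched 32 of the 42 members. GTTGCC, searched on both strands, lay in the windows of 14 of these 32 genes (43.8%), against 3821 of the 27025 genes in the table (14.1%). Some genes have several annotated starts, and by window the shares were 14 of 42 (33.3%), against 12.5% of all windows. Among members with a probe, the shares were lower, 8 of 22 genes (36.4%) and 8 of 30 windows (26.7%). The forkhead motif GTAAACA, the kind of site that Foxj1 binds, lay in the windows of 2 of the 32 members (6.25%, Ak7 and Ubxn10), against 4.05% of all genes. The cAMP response element TGACGTCA lay in none of the members' windows, against 2.03% of all genes. A match is a stretch of letters and was not tested for binding.

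The 7 stretches below run from 100 bases before the start to 50 bases after it, read 5′ to 3′ on the gene's strand, with matches to GTTGCC and GTAAACA (or their reverse complements) in capitals. Where a gene has several starts, the one with the most GTTGCC matches is shown. Fam183b (chr11:58801911-58802060, minus strand), which encodes a protein of the doublet microtubules, carries GTTGCC at -67 and -16 from the start. In 1110017D15Rik (chr4:41507715-41507864, minus strand), another doublet protein gene, the matches face each other at -18 and -11 and spell out a whole palindrome, while the window of its other start holds none. Dynlrb2 (chr8:116504915-116505064, plus strand) and Ccdc113 (chr8:95534000-95534149, plus strand) carry 1 match to GTTGCC each. Ubxn10 (chr4:138725216-138725365, minus strand) carries 1 match to GTTGCC and 1 to the forkhead motif, and the windows of its other starts hold none. Tekt1 (chr11:72361833-72361982, minus strand) is shown because it carries 2 matches at 1 of its starts and its difference between CT12 VIP and CT12 Veh slices was near 0. Ccdc190 (chr1:169928839-169928988, plus strand) is shown because it had the largest difference of the members in each VIP group and carries no match.
Fam183b: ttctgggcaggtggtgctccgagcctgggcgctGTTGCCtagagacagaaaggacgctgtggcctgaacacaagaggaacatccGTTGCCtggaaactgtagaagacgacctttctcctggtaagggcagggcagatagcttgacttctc
1110017D15Rik: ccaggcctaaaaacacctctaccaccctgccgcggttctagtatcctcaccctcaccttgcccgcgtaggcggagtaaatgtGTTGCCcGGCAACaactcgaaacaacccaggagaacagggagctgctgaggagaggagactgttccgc
Dynlrb2: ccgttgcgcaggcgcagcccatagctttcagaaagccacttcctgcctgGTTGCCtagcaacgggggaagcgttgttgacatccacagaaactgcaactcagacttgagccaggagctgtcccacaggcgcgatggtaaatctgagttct
Ubxn10: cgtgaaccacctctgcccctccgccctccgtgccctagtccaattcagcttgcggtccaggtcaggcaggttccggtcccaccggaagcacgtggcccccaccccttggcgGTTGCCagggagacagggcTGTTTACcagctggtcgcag
Ccdc113: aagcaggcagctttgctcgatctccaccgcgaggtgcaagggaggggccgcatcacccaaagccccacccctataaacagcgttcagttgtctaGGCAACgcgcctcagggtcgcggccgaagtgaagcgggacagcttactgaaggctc
Tekt1: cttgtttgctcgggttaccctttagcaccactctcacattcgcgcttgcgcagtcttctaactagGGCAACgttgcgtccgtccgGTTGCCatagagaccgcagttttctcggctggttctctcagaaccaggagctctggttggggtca
Ccdc190: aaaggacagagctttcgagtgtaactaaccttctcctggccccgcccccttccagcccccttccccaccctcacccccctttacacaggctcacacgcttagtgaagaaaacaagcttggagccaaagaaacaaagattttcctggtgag

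The arrays detected between 8019 and 16923 probes at a detection p of 0.01 or less, and correlations between arrays lay between 0.927 and 0.983. On 4 arrays fewer than 10000 probes were detected, namely CT16 VIP replicates 3 and 4, CT12 VIP replicate 1 and CT12 Veh replicate 1. CT16 VIP replicate 4 was the lowest array of its group for 21 of the 31 members, and CT12 VIP replicate 1 was the lowest of its group for 21. The other arrays with few detected probes went the other way. CT16 VIP replicate 3 was the highest of its group for 14 members and the lowest for 0. CT12 Veh replicate 1 was the highest of its group for 15 and the lowest for 2. The tissue label was checked on its markers. Between 2 and 5 of the 6 SCN neuron genes with a probe (Avp, Vip, Nms, Six6, Lhx1 and Grp) were detected on each array, and at least 9 of 12 pan-neuronal genes. Of the 31 members, 14 were detected on all 16 arrays, 9 on 9 to 15 arrays and 8 on 1 to 8 arrays. In bulk RNA, fewer ciliated cells and less RNA per cell cannot be told apart.

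At 2 h, most members read lower in CT12 VIP slices than in CT12 Veh slices. On the values normalised for this pair, the differences of the 29 members tested ran from -0.85 (Ccdc190) to 0.03 (Iqcg). Their median was -0.29 on a log2-like scale, against -0.0087 over all 17605 probes. The arrays of the groups did not overlap for 19 of the 29 members, all lower, and 4.73% of all probes were lower in this way. By limma, 17 of the 29 members passed an adjusted p of 0.05 as lower, against 1.47% of all probes, and 0 passed as higher, against 2.73%. Since this contrast chose the members, nothing is read from these counts.

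The plot shows 9 members by array. Low CT12 VIP and high CT12 Veh values are what the set was chosen for, so that pattern is no result. For Ccdc190 the CT10 mean (9.22) was above the CT12 Veh mean (9.093). Per-array values in the next paragraphs are the globally normalised values in replicate order, and differences are between group means of these values.

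**Figure D1:**
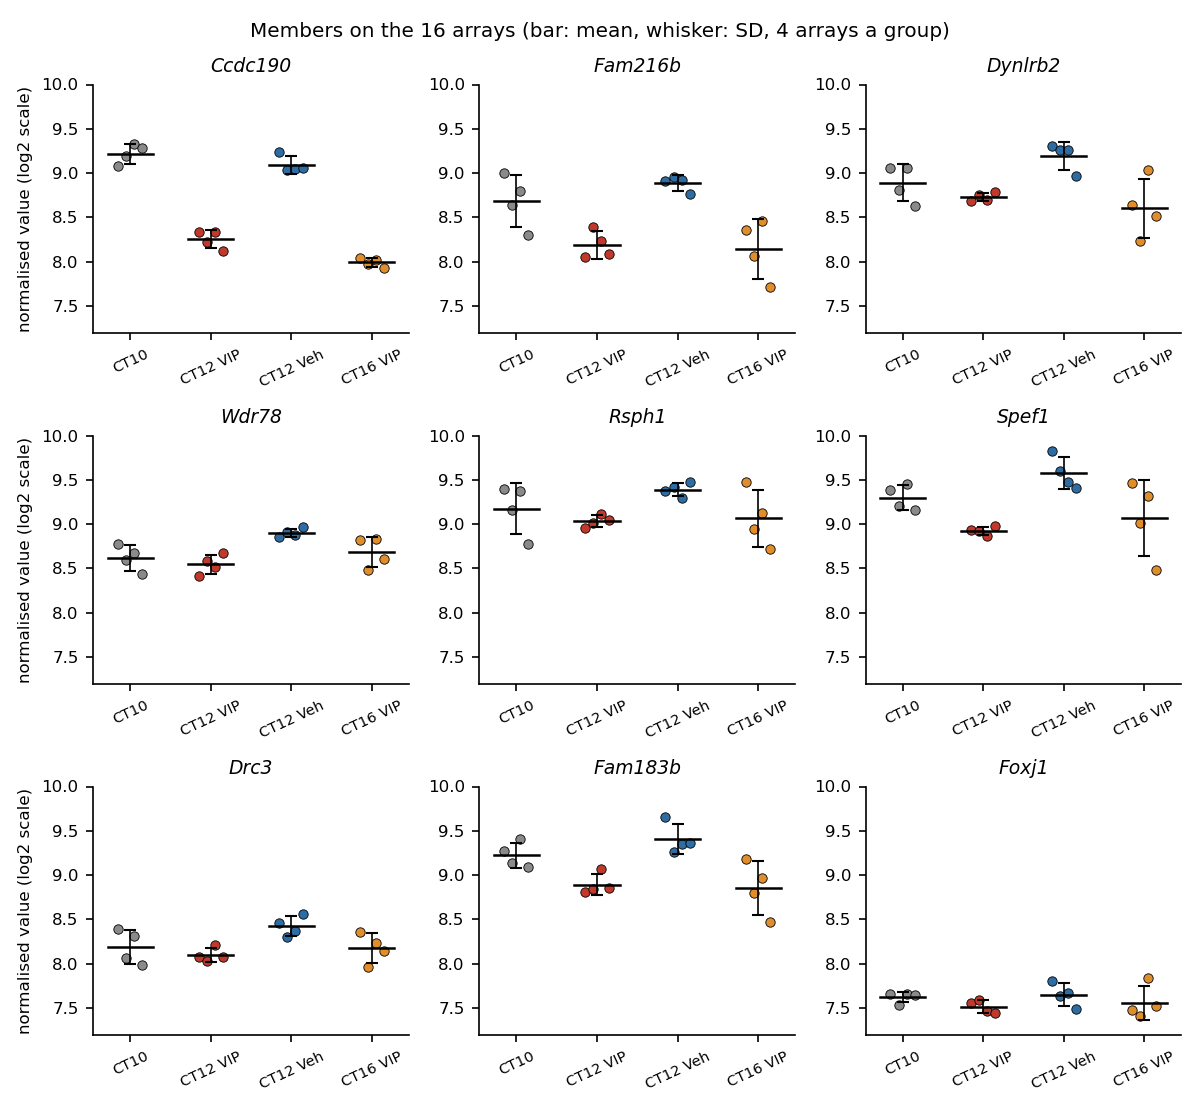
Normalised value (log2-like scale) of 9 members on each of the 16 arrays, by group. Bars give the group mean and whiskers the SD (4 arrays a group). Ccdc190 lay between 7.93 and 8.34 on the 8 arrays of VIP slices and between 9.03 and 9.33 on the 8 arrays of CT12 Veh and CT10 slices.

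Dynein arms are the motors of the axoneme. Wdr78, an intermediate chain of the inner arm, read 8.41, 8.58, 8.52 and 8.67 in CT12 VIP slices, against 8.86, 8.91, 8.88 and 8.96 in CT12 Veh slices. It read 8.82, 8.48, 8.83 and 8.60 in CT16 VIP slices, against 8.78, 8.59, 8.67 and 8.44 in CT10 slices. The CT12 groups did not overlap, whereas the CT16 VIP and CT10 slices did. Efcab1, the calcium sensor calaxin of the outer arm docking site, read 8.59, 8.57, 8.74 and 8.63 in CT12 VIP slices, against 9.03, 8.79, 8.93 and 8.93 in CT12 Veh slices. Its values were 8.50, 8.57, 8.59 and 8.37 in CT16 VIP slices, against 8.70, 8.68, 8.62 and 8.50 in CT10 slices. For Efcab1, the CT12 Veh slices stood above those of every other group. Dnali1, an inner arm light chain, differed by -0.38 between CT12 VIP and CT12 Veh slices and by -0.22 between CT16 VIP and CT10 slices. Dnaic1, an intermediate chain of the outer arm that was detected on 8 arrays, differed by -0.09 and -0.07.

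Radial spokes reach from the doublets towards the central pair. Rsph1, a spoke head protein, read 8.96, 9.02, 9.11 and 9.05 in CT12 VIP slices, against 9.38, 9.42, 9.29 and 9.47 in CT12 Veh slices. In CT16 VIP slices it read 9.48, 8.95, 9.12 and 8.72, against 9.39, 9.15, 9.37 and 8.78 in CT10 slices. The CT16 VIP and CT10 slices both spread widely and overlapped. Rsph9, a second spoke head protein, read 7.99, 7.94, 7.998 and 8.06 in CT12 VIP slices, against 8.10, 8.004, 8.10 and 7.97 in CT12 Veh slices. CT16 VIP slices gave 7.94, 7.89, 8.02 and 7.87 for it, against 8.003, 7.84, 8.12 and 7.99 in CT10 slices. All 4 groups of Rsph9 overlapped. Rsph4a, also of the spoke head, lay between 7.75 and 7.93 in CT16 VIP slices, against 8.004 to 8.12 in CT10 slices, without overlap.

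The central pair has its own projections. Spef1, a microtubule-binding protein needed for the central pair, read 8.93, 8.92, 8.87 and 8.97 in CT12 VIP slices, against 9.82, 9.59, 9.48 and 9.41 in CT12 Veh slices. It read 9.46, 9.01, 9.32 and 8.49 in CT16 VIP slices, against 9.39, 9.21, 9.45 and 9.15 in CT10 slices. The CT12 VIP slices were tight and lowest, and the CT16 VIP slices covered the whole range from below the CT12 VIP slices to the level of the CT12 Veh slices. Cfap54, a projection protein, read 7.64, 7.73, 7.64 and 7.64 in CT12 VIP slices, against 7.79, 7.65, 7.70 and 7.82 in CT12 Veh slices. CT16 VIP slices read 7.75, 7.48, 7.58 and 7.42 for Cfap54, against 7.75, 7.68, 7.75 and 7.46 in CT10 slices. These groups overlapped, and Cfap54 was detected on 9 of the 16 arrays.

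The nexin-dynein regulatory complex links neighbouring doublets, and the ruler formed with Ccdc39 sets the repeat along which it sits. Ccdc39 read 8.23, 8.46, 8.40 and 8.39 in CT12 VIP slices, against 8.81, 8.67, 8.48 and 8.64 in CT12 Veh slices. In CT16 VIP slices Ccdc39 read 8.23, 8.47, 8.46 and 8.23, against 8.77, 8.47, 8.18 and 8.19 in CT10 slices. Its CT10 slices ran from below to above the CT16 VIP slices. Drc3, a subunit of the complex, read 8.07, 8.03, 8.21 and 8.07 in CT12 VIP slices, against 8.46, 8.30, 8.37 and 8.56 in CT12 Veh slices. For CT16 VIP slices the values were 8.36, 7.97, 8.24 and 8.15, against 8.39, 8.06, 8.31 and 7.99 in CT10 slices. Every CT12 VIP slice was below every CT12 Veh slice for Drc3, and the CT16 VIP and CT10 slices overlapped. Ccdc113, which is tied to cilia and centriolar satellites, differed by -0.53 between CT12 VIP and CT12 Veh slices and by 0.08 between CT16 VIP and CT10 slices. Iqcg, a subunit of the complex detected on 7 arrays, differed by 0.03 and -0.07.

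Tektins and related proteins lie on or inside the doublets. Fam183b read 8.81, 8.85, 9.07 and 8.85 in CT12 VIP slices, against 9.65, 9.26, 9.35 and 9.36 in CT12 Veh slices. It read 9.18, 8.80, 8.96 and 8.47 in CT16 VIP slices, against 9.27, 9.13, 9.40 and 9.09 in CT10 slices. The CT12 VIP slices were below every CT12 Veh and CT10 slice, and 1 CT16 VIP slice reached the CT10 range. Cfap45, an inner doublet protein, read 8.19, 8.28, 8.27 and 8.19 in CT12 VIP slices, against 8.43, 8.54, 8.25 and 8.38 in CT12 Veh slices. Its CT16 VIP slices read 8.55, 8.18, 8.47 and 8.05, against 8.39, 8.05, 8.41 and 8.12 in CT10 slices. Cfap45 overlapped in both comparisons. Of the other 6 members here, 1110017D15Rik and Ccdc146 differed by -0.46 and -0.55 between CT12 VIP and CT12 Veh slices, and Mns1 and Cfap126 by -0.21 and -0.19. Cfap52 and Tekt1, the tektin with a probe here, differed by -0.04 and -0.02.

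Foxj1, the forkhead factor that drives motile cilia genes, read 7.56, 7.59, 7.46 and 7.45 in CT12 VIP slices, against 7.80, 7.63, 7.67 and 7.49 in CT12 Veh slices. It read 7.47, 7.41, 7.84 and 7.52 in CT16 VIP slices, against 7.65, 7.54, 7.65 and 7.64 in CT10 slices. Foxj1 was detected on 4 of the 16 arrays, on none of the CT12 VIP arrays and on 2 of the CT12 Veh arrays. Its CT12 VIP and CT12 Veh slices overlapped.

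The 3 enzymes had the smallest median difference of the parts at 2 h, an order partly set by the choice of members. This median was the value of Ak7, detected on 2 of 4 arrays in each CT12 group. Stk33, a kinase, read 8.48, 8.75, 8.30 and 8.63 in CT12 VIP slices, against 8.40, 8.94, 8.71 and 8.59 in CT12 Veh slices. In CT16 VIP slices it read 8.85, 8.61, 8.86 and 8.70, against 8.65, 8.85, 7.96 and 8.24 in CT10 slices. Both pairs of groups overlapped, and 2 of the CT10 slices were lowest of all. Ak7, an adenylate kinase of cilia, read 7.54, 7.65, 7.57 and 7.55 in CT12 VIP slices, against 7.67, 7.71, 7.67 and 7.59 in CT12 Veh slices. CT16 VIP slices read 7.81, 7.60, 7.80 and 7.61 for Ak7, against 7.54, 7.66, 7.79 and 7.57 in CT10 slices. Ak7 overlapped in both comparisons and was detected on 6 arrays. Ak8, a related kinase, was detected on 1 array and differed by 0.05 between CT16 VIP and CT10 slices.

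The last group holds transport and tubulin genes and members of less certain role. Ccdc190, whose role in cilia is not given here, read 8.34, 8.22, 8.33 and 8.13 in CT12 VIP slices, against 9.24, 9.03, 9.04 and 9.06 in CT12 Veh slices. It read 8.05, 7.97, 8.02 and 7.93 in CT16 VIP slices, against 9.08, 9.19, 9.33 and 9.28 in CT10 slices. No array of a VIP slice reached the range of the CT12 Veh or CT10 slices. Dynlrb2, a light chain of cytoplasmic dynein, the motor of retrograde transport in cilia, read 8.68, 8.75, 8.70 and 8.79 in CT12 VIP slices, against 9.31, 9.26, 9.26 and 8.96 in CT12 Veh slices. In CT16 VIP slices Dynlrb2 read 8.64, 8.23, 9.04 and 8.51, against 9.06, 8.81, 9.06 and 8.63 in CT10 slices. The CT12 groups of Dynlrb2 did not overlap, and CT16 VIP slices spread from the lowest value of all to the CT10 range. Fam216b, Ubxn10 (an adaptor of the VCP ATPase), Armc3 and Tppp3 (a tubulin polymerisation protein) differed by -0.70, -0.67, -0.37 and -0.06 between CT12 VIP and CT12 Veh slices.

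The comparison of CT16 VIP with CT10 slices was the only comparison made wholly on arrays outside the contrast that chose the members. By limma with Benjamini-Hochberg adjustment, 1 of 31 members was lower (Ccdc190), against 1.1% of all 18763 probes, and 0 were higher, against 1.97%. Ccdc190 fell by 1.23 on the log2-like scale of the normalised values (standard error 0.0738, 95% interval -1.39 to -1.07, adjusted p = 4.93e-07 in limma). Its mean raw signal was 227.6 in CT16 VIP and 694.8 in CT10 slices. It remained lower in all 18 alternatives, with differences from -2.04 to -0.81 and adjusted p up to 0.000275. Of the 15 further probes of members tested in this comparison, 1 was called, a second Ccdc190 probe that was detected on 0 of 4 CT16 VIP and 1 of 4 CT10 arrays and is too dim for its difference to be read. Without Ccdc190 the remaining 30 members had no call, and the lowest was Fam216b at -0.54 (adjusted p = 0.106 in limma).

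Over the 31 members the median difference between CT16 VIP and CT10 slices was -0.11, against -0.0022 over all probes, and 25 members were below 0. Several lists of other cell types lay as low or lower in this comparison. Medians were -0.19 for 11 astrocyte genes (all below 0, Aqp4 called at -0.53) and -0.21 for 7 microglia genes (5 lower at an unadjusted p of 0.05). They were -0.14 for 8 oligodendrocyte genes, -0.13 for 12 neuronal genes and -0.11 for 6 SCN neuron genes. The neuronal list was mixed, with 8 of 12 genes below 0 and Nefm called higher at 0.65. The shift of the members is therefore not shown to be particular to cilia genes. At an unadjusted p of 0.05, 5 members were lower (Rsph4a, Mns1, Fam183b, Ccdc190 and Fam216b), against 8.28% of all probes, and 4 were lower without overlap (Rsph4a, Cfap126, Mns1 and Ccdc190), against 4.68%. Cfap126 was detected on 1 CT16 VIP array and 1 CT10 array. Its highest CT16 VIP value was 7.541 and its lowest CT10 value 7.548, so its gap is not read. The highest difference was that of Stk33 at 0.33 (95% interval -0.0014 to 0.66). The intervals had a median half-width of 0.209 and were up to 0.355 wide to each side, so a difference as small as the median could not be shown for a single member. Cfap52 and Tppp3 were detected on no CT16 VIP array and Ak8 on no CT10 array, and their differences are between signals not above background. Without CT16 VIP replicate 4 the median was -0.0629, and without CT16 VIP replicate 1 there were 3 calls in place of 1. On neqc values (background-corrected raw signals) the median was -0.307.

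**Figure D2:**
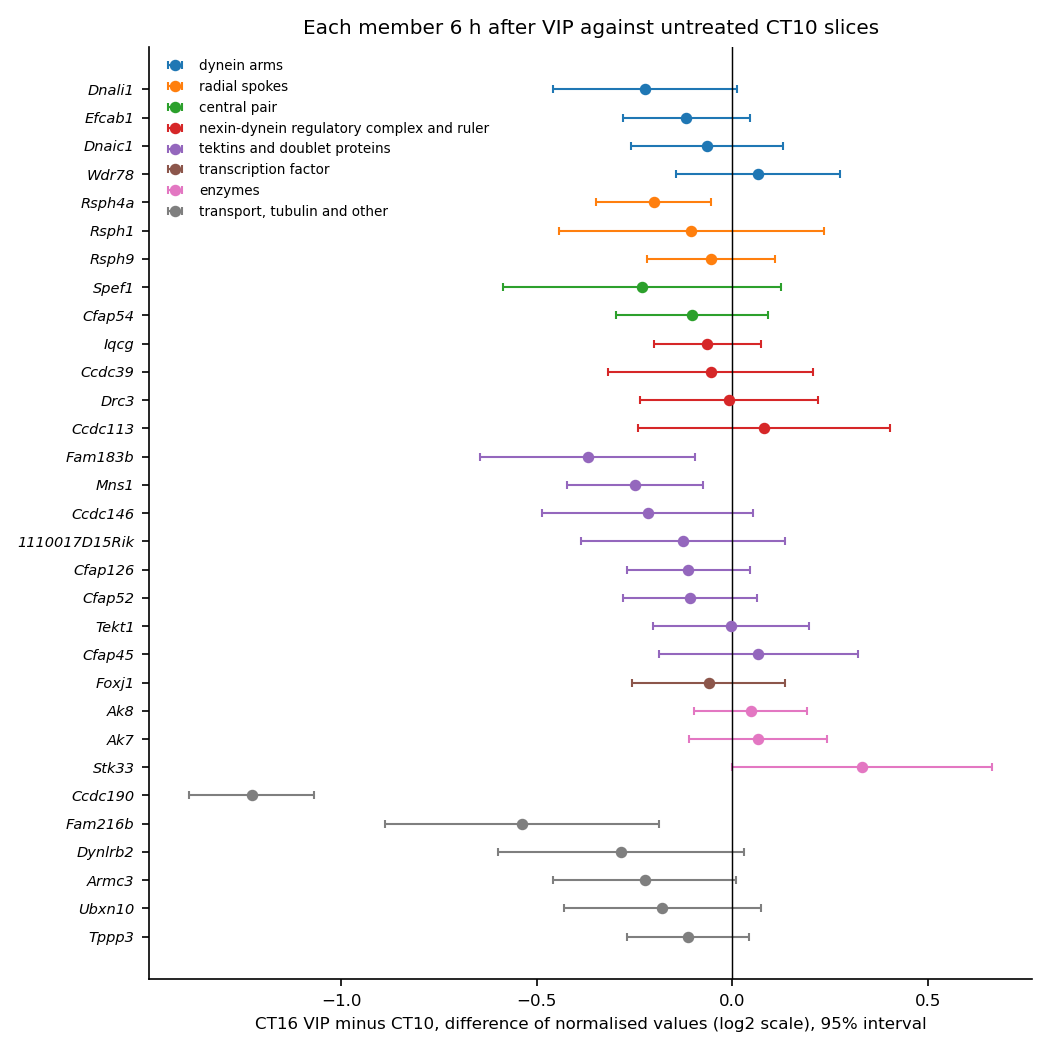
Difference between CT16 VIP and CT10 slices (normalised values, log2-like scale) for each of the 31 members, with 95% intervals (4 slices a group). Colours give the part of the axoneme. Ccdc190 stood apart at -1.23, and the other members lay between -0.54 and 0.33.

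The responses at 2 h and 6 h were set side by side against the same CT12 Veh arrays, which were used in the choice of members. At 6 h the differences of the 30 members tested had a median of -0.25, against -0.0023 over all 18724 probes, and ran from -1.10 (Ccdc190) to 0.09 (Stk33). There were 8 members lower at an adjusted p of 0.05 in limma (Efcab1, Mns1, Fam183b, 1110017D15Rik, Ccdc146, Dynlrb2, Ccdc190 and Fam216b), against 1.45% of all probes, and 0 higher, against 2.1%. Calls depended on the probe. The other 1110017D15Rik probes did not pass (-0.31 and -0.33, adjusted p = 0.156 and 0.0654 in limma). A further Drc3 probe passed as lower (-0.41, adjusted p = 0.0295 in limma), while the Drc3 probe read here did not. The count of 8 also moved with the arrays used. It was 3 without CT12 Veh replicate 1 or CT16 VIP replicate 2, 4 without CT12 Veh replicate 2, 5 without CT12 Veh replicate 3 or 4, and 14 without CT16 VIP replicate 1.

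By part, the median differences at 2 h and 6 h, both taken from the same CT12 Veh arrays, were -0.32 and -0.28 for 4 dynein arm genes, -0.26 and -0.25 for 3 radial spoke genes and -0.36 and -0.34 for 2 central pair genes. For 4 genes of the nexin-dynein regulatory complex and ruler they were -0.31 and -0.23, and for 8 tektins and doublet proteins -0.20 and -0.27. The 6 genes of transport, tubulin and other roles had the lowest medians, -0.57 and -0.48. Members were chosen on the CT12 VIP and CT12 Veh arrays, so the order of the parts is partly set by the choice and is not read. The 3 enzymes had medians of -0.083 at 2 h and 0.053 at 6 h. The first is the value of Ak7, detected on 2 of 4 arrays in each CT12 group. The second is that of Ak8, detected on 1 CT16 VIP array and 0 CT12 Veh arrays. Neither median is read, as both rest on signals near background. The central pair medians lie between Spef1 (-0.65 and -0.51) and Cfap54 (-0.07 and -0.18), which was detected on 9 of the 16 arrays. Other parts also hold dim members, such as Dnaic1 and Iqcg. The assembly factors that preload dynein arms, Lrrc6 and Zmynd10, were not analysed here.

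**Figure D3:**
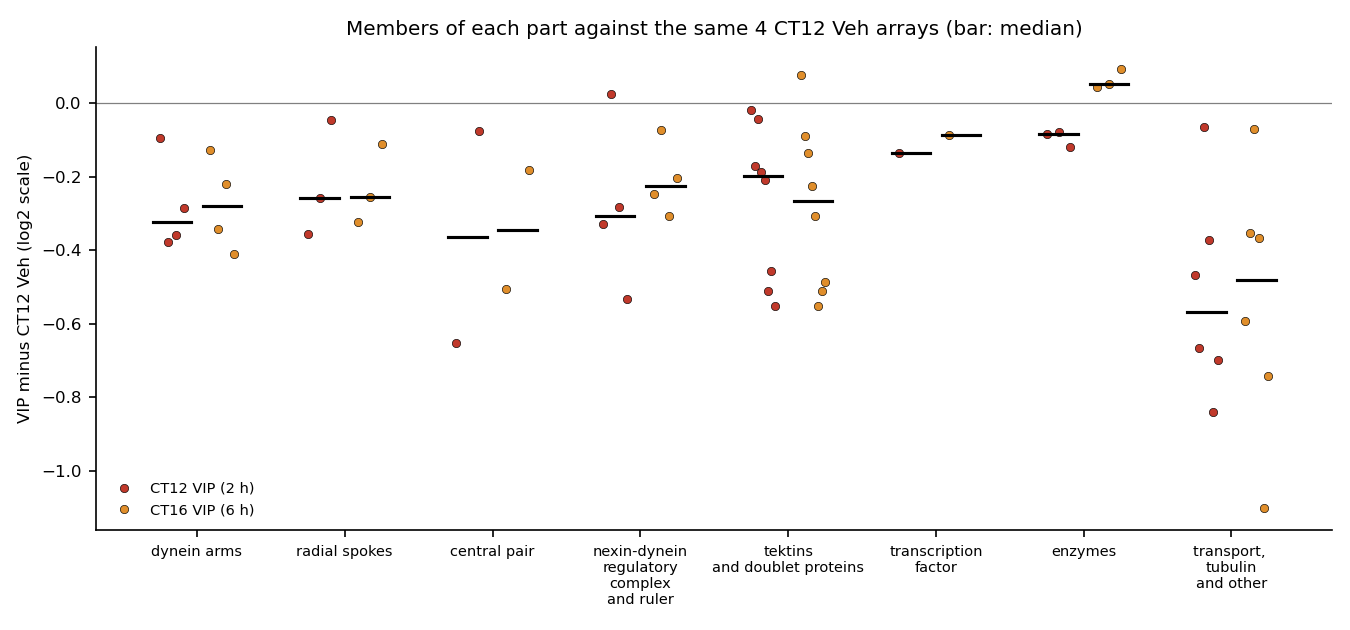
Difference from the CT12 Veh slices (normalised values, log2-like scale) of each member at 2 h and at 6 h after VIP. Members are sorted by part of the axoneme, with the median of each part as a bar. Both times share the same 4 CT12 Veh arrays, and the enzymes are the only part with a median above 0 at 6 h (0.053). That median is the value of Ak8, detected on 1 CT16 VIP array and 0 CT12 Veh arrays, so it is not read.

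The difference between the times was tested directly in CT16 VIP against CT12 VIP slices, whose CT12 VIP arrays were used in the choice. None of the 30 members tested passed an adjusted p of 0.05 in limma as lower, against 0.958% of all 19110 probes, or as higher, against 0.832%. At an unadjusted p of 0.05, 1 member was lower (Ccdc190), against 6.72%, and 3 were higher (Ccdc113, Stk33 and Ubxn10), against 5.72%. Ccdc190 differed by -0.26 (95% interval -0.41 to -0.11, adjusted p = 0.0927, the lowest of the members), Ubxn10 by 0.31 (0.086 to 0.54) and Ccdc113 by 0.32 (0.031 to 0.62). The interval held 0 for 26 of the 30 members, and half-widths ran from 0.132 to 0.331. The median difference was 0.0063, against 0.0016 over all probes.

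Against the CT10 slices, the CT12 groups lay to either side. In CT12 VIP slices 5 of 30 members were lower at an adjusted p of 0.05 in limma, against 0.425% of all 17658 probes, and 0 higher, against 2.37%. These were Spef1 (-0.38), Fam183b (-0.33), Ubxn10 (-0.49), Ccdc190 (-0.97) and Fam216b (-0.49), and the median of the 30 was -0.10, against -0.0119 over all probes. The count was 3 without CT10 replicate 1, CT10 replicate 4, CT12 VIP replicate 1 or CT12 VIP replicate 4. In CT12 Veh slices, 27 of 30 members read higher than in CT10 slices, with a median of 0.15, against -0.0004 over all probes. None passed the adjusted threshold as lower, against 0.00594% of 16847 probes, or as higher, against 0%. At an unadjusted p of 0.05, 9 members were higher (Wdr78, Efcab1, Spef1, Drc3, Ccdc39, Ccdc113, 1110017D15Rik, Ccdc146 and Dynlrb2), against 3.38%, and 3 were higher without overlap, against 1.83%. Since members were chosen for low CT12 VIP and high CT12 Veh values, these directions are partly set by the choice. Ccdc190 differed by -0.13 between CT12 Veh and CT10 slices (adjusted p = 0.774 in limma), with the CT12 Veh mean below that of the untreated slices.

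By group mean, CT12 Veh was the highest group for 24 of the 31 members, and the lowest was CT12 VIP for 15 and CT16 VIP for 15. The median deviation of the members from their own means over the 16 arrays was -0.23 to 0.044 in CT16 VIP slices, -0.17 to -0.045 in CT12 VIP slices, 0.108 to 0.21 in CT12 Veh slices and -0.069 to 0.13 in CT10 slices. The CT12 VIP and CT12 Veh slices did not overlap on this scale, and the CT16 VIP slices overlapped both the CT12 VIP and the CT10 slices. Since members were chosen for low CT12 VIP and high CT12 Veh values, this gap and these counts were largely set by the choice.

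Genes of motile cilia outside the set were taken from a second list of 94 names, of which 58 had a probe. At 2 h after VIP, against CT12 Veh slices, 10 of 53 tested were lower (1.47% of all probes) and 0 higher (2.73%), with a median of -0.14, and 51 were below 0. The lowest were Ttc25, an outer arm docking protein (-0.41, adjusted p = 0.00098 in limma), Spata17 (-0.41, adjusted p = 0.00031) and Cfap161, a doublet protein (-0.40, adjusted p = 0.0040). At 6 h, 2 of 57 were lower than in CT12 Veh slices, against 1.45% of all probes, and 0 higher, against 2.1%. These were Nme5 (-0.30, adjusted p = 0.0360 in limma) and Morn2 (-0.26, adjusted p = 0.0396), and the median of the 57 was -0.15. Between CT16 VIP and CT10 slices, 0 of 54 passed the threshold in either direction in limma, with a median of -0.045. At an unadjusted p of 0.05, 3 of the 54 were lower, against 8.28% of all probes, and 2 higher, against 6.85%. Against CT10 slices, 0 of 48 passed in CT12 VIP slices (0.425% of all probes lower, 2.37% higher). Their median was -0.0055, and 24 of the 48 were below 0. At an unadjusted p of 0.05, 7 were lower (6.99%) and 0 higher (7.12%). The median of 53 genes between CT12 Veh and CT10 slices was 0.109. Of these, 14 were higher (3.38%) and 0 lower (3.48%) at that threshold. The 2 h difference is therefore not shown to be a fall below untreated slices.

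**Figure D4:**
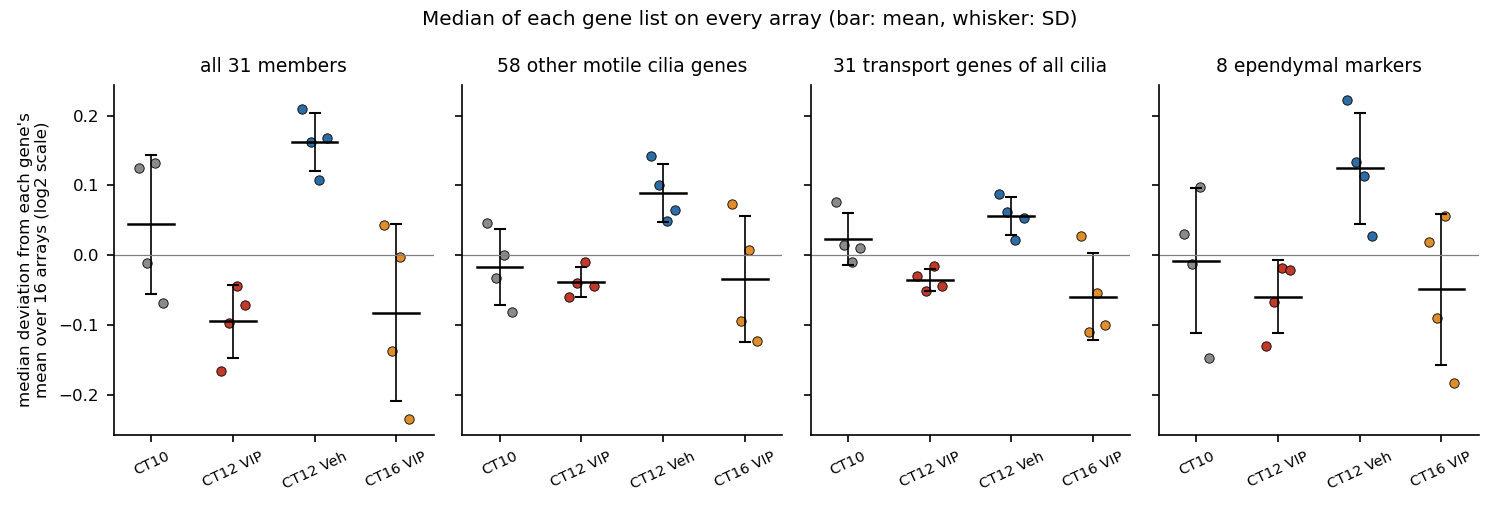
Median deviation of 4 gene lists from each gene's mean over the 16 arrays (log2-like scale), for every array. Bars give group means and whiskers the SD. For the 31 members, the CT12 VIP slices lay between -0.17 and -0.045 and the CT12 Veh slices between 0.108 and 0.21, and the CT16 VIP slices had the widest spread. The gap between the CT12 groups was largely set by the choice of members. In the other lists shown, the CT12 VIP and CT12 Veh slices did not overlap either.

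Genes that serve all cilia were measured for comparison. There were 31 genes of intraflagellar transport and the BBSome, the trains that carry cargo in cilia. At 2 h against CT12 Veh slices, 1 of 30 was lower (Ttc30b, -0.35, adjusted p = 0.0062 in limma), against 1.47% of all probes. None was higher, against 2.73%. The median was -0.085, and 25 of the 30 were below 0. At an unadjusted p of 0.05, 7 were lower, against 7.75%, and 0 higher, against 7.45%. Between CT16 VIP and CT10 slices, 1 of 31 was lower, against 1.1% of all probes, and 0 higher, against 1.97%. This was Dync2li1, a subunit of the retrograde motor (-0.42, adjusted p = 0.0146 in limma). The median was -0.066, and 26 of the 31 were below 0. Among 18 genes of the primary cilium membrane and transition zone, 0 of 16 passed at 2 h against CT12 Veh slices in limma. At an unadjusted p of 0.05, 3 of these were lower, against 7.75% of all probes, and 1 higher, against 7.45%. In CT16 VIP against CT10 slices, 1 of 14 was lower, against 1.1% of all probes, and 0 higher, against 1.97%. This was Cc2d2a, a transition zone protein (-0.42, adjusted p = 0.0234 in limma).

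Of 9 regulators of ciliogenesis with a probe, the RFX factor Rfx4 differed most. Rfx4 averaged 9.07 ± 0.099 in CT12 VIP slices and 8.18 ± 0.069 in CT12 Veh slices (SD, n = 4 each), a rise of 0.89 (adjusted p = 4.33e-08 in limma). It averaged 8.20 ± 0.25 in CT16 VIP slices and 9.09 ± 0.098 in CT12 VIP slices (SD, n = 4 each), and fell by 0.89 (adjusted p = 0.000326 in limma). Rfx4 thus was higher than in CT12 Veh slices at 2 h, and at 6 h it differed from CT10 slices by -0.043 (95% interval -0.28 to 0.19). Cep63, a centrosomal protein, was lower at 2 h (-0.32, adjusted p = 0.0064 in limma). Myb was also called lower (adjusted p = 0.0269 in limma), but it was detected on no CT12 VIP array and 1 CT12 Veh array, so its difference is not read.

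Most markers of ependymal cells read lower at 2 h, as the members did. In CT12 VIP slices, against CT12 Veh slices, 6 of 8 markers were below 0, and 6 were lower and 1 higher at an unadjusted p of 0.05 (7.75% and 7.45% of all probes). At an adjusted p of 0.05, 3 were lower (Mia -0.39, Rarres2 -0.29 and Tmem212 -0.26), against 1.47% of all probes. The intermediate filament gene Vim was higher (0.30), against 2.73% of all probes, and the median of the markers was -0.24. At 6 h against CT12 Veh slices, Rarres2 (-0.57) and Tmem212 (-0.31) were lower, and Vim (0.60) and Cd24a (0.38) higher (1.45% and 2.1% of all probes). Between CT16 VIP and CT10 slices, 0 were lower, against 1.1% of all probes. Cd24a was higher (0.39, adjusted p = 0.0464 in limma), against 1.97% of all probes, and the median of the markers was -0.073. In CT12 VIP against CT10 slices, 0 of 8 passed (0.425% of all probes lower, 2.37% higher). Their median was -0.075, with 5 of the 8 below 0. For CT12 Veh against CT10 slices the median was 0.15, with 1 of the 8 below 0. At an unadjusted p of 0.05, 3 were higher there (3.38%) and 1 lower (3.48%). The summed raw signal of the 8 markers was 1618.9 to 3754.2 in CT16 VIP slices, 2377.5 to 2769.1 in CT12 VIP slices, 2499.2 to 2902.5 in CT12 Veh slices and 2110.7 to 3685.7 in CT10 slices. Between 3 and 8 of them were detected on an array. The part of ependymal cell content in the members' differences was not tested. Of 11 choroid plexus markers 2 had a probe and none was called, and none of 8 tanycyte markers had a probe here.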

How the data were processed

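Whole-slice RNA of 16 SCN slices, 4 each of CT16 VIP, CT12 VIP, CT12 Veh and CT10 by the sample labels, was amplified with the Ovation Pico WTA v2 kit and hybridised to Illumina MouseWG-6 v2 arrays (45281 probes). The authors deposited raw intensity values per probe and array, without normalisation, and a detection p-value for each. Normalised values on a log2-like scale, deposited by the authors, came from lumi (its version is not given in the sources used here) after a detection filter at 0.01, variance stabilisation and quantile normalisation, for CT12 VIP with CT12 Veh (17605 probes), CT16 VIP with CT12 VIP (19110 probes) and all 16 arrays (19893 probes).

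Probes were named through the platform table and current RefSeq symbols (16733 probes with 1 gene symbol, 3160 without). Each gene was read from its probe with the highest mean. Groups were compared probe by probe over the whole table with limma 3.58.1 in R 4.3.3, 2-sided, without covariates and with only the arrays of the groups compared, with Benjamini-Hochberg adjustment at 0.05. The authors' pairwise values were used where they exist, and otherwise the global values of probes detected on at least 1 of the 8 arrays. On simulated data, 71% to 93% of changes of 0.5 and 98% to 100% of changes of 1 were recovered in the 6 comparisons, with 2.87% to 5.76% of calls false. The simulated sizes lie above the members' median differences on the authors' values, so recovery of differences that small was not measured. The number of arrays limits the precision.

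Members and gene lists were chosen with earlier results of these data known. All members are accounted for, and values by array are given for the 2 members of each part with the highest mean, for Foxj1 and for members called in CT16 VIP vs. CT10. Promoters and other tables were handled in Python 3.11.15 with pandas 2.3.3, and plots were drawn with matplotlib 3.10.9. Alternatives were neqc, quantile-normalised raw values, other detection filters, 1 fit of all arrays, array weights, a covariate for detected probes, the mean of a gene's probes, a replicate block, leaving out arrays with fewer than 10000 detected probes, and leaving out each array.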

Additional observations from a re-analysis of the deposited data

Results flagged for a closer look

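In 64 groups of 4 arrays (15 members with values by array and the median of all members, in 4 groups each), 4 held an array far from the other 3, where chance gives about 1 in 20. Ccdc190 read 9.24 in CT12 Veh replicate 1, against 9.03 to 9.06 in the other CT12 Veh slices. Dynlrb2 read 8.96 in CT12 Veh replicate 4, against 9.26 to 9.31 in the other 3. Cfap54 read 7.73 in CT12 VIP replicate 2, against 7.64 to 7.65 in the other 3, and Foxj1 read 7.54 in CT10 replicate 3, against 7.64 to 7.65. The far arrays were 4 different libraries, and each of these gaps is within a group.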

How the results depend on the processing

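The call of Ccdc190 in CT16 VIP vs. CT10 held in all 18 alternatives, and the members' median kept its sign in every comparison except CT16 VIP vs. CT12 VIP, where it was -0.0454 on neqc values of all probes and -0.0358 to 0.0897 without 1 array. Values made by neqc were tried without and with the probes that no array detected. For CT12 VIP vs. CT12 Veh they gave 11 and 11 lower members and medians of -0.5432 and -0.4722. For CT16 VIP vs. CT12 Veh there were 2 and 1 lower members, with medians of -0.5467 and -0.5324, and for CT12 VIP vs. CT10 2 and 2, with medians of -0.2352 and -0.2233. The medians were -0.307 and -0.307 in CT16 VIP vs. CT10 and 0.2892 and 0.2858 in CT12 Veh vs. CT10. Log2 quantile-normalised raw values gave medians of -0.3981 (CT12 VIP vs. CT12 Veh) and -0.3838 (CT16 VIP vs. CT12 Veh), and probes detected on every array of a group -0.3773 and -0.3316. One fit of all 16 arrays called 13 members lower in CT16 VIP vs. CT12 Veh, 3 in CT16 VIP vs. CT10, 2 in CT12 VIP vs. CT10 and 1 in CT16 VIP vs. CT12 VIP. Array weights gave 13 in CT16 VIP vs. CT12 Veh and 3 in CT12 VIP vs. CT10. With detected probes as a covariate, 13 were lower in CT16 VIP vs. CT12 Veh and 1 was higher in CT16 VIP vs. CT12 VIP. Without the 4 arrays with few detected probes, the lower counts were 3 in CT16 VIP vs. CT12 Veh and 3 in CT12 VIP vs. CT10, and 1 was higher in CT16 VIP vs. CT12 VIP. The mean of a gene's probes gave 3 in CT12 VIP vs. CT10. At an unadjusted p of 0.05, lower counts were 1 in CT16 VIP vs. CT12 VIP, 19 in CT16 VIP vs. CT12 Veh, 5 in CT16 VIP vs. CT10 and 11 in CT12 VIP vs. CT10, and higher counts were 3 in CT16 VIP vs. CT12 VIP and 9 in CT12 Veh vs. CT10. The cause of these shifts was not tested.

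Leaving out 1 array, the lower count ranged from 14 to 17 for CT12 VIP vs. CT12 Veh, while it was 3 to 14 in CT16 VIP vs. CT12 Veh, 1 to 3 in CT16 VIP vs. CT10 and 3 to 7 in CT12 VIP vs. CT10, and the higher count from 0 to 2 in CT16 VIP vs. CT12 VIP (2 without CT16 VIP replicate 4). Replicate numbers did not pair the slices: the correlations of same-numbered slices ran from -0.324 to 0.262, with 3 of 21 over 0.1. With the replicate block, 17 members were lower for CT12 VIP vs. CT12 Veh, with 8 in CT16 VIP vs. CT12 Veh, 1 in CT16 VIP vs. CT10 and 4 in CT12 VIP vs. CT10, and no count moved by more than 1.5 times. Dim probes limit what can be read: 8 members were detected on 8 or fewer arrays.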
